A study of Drosophila melanogaster with 10 samples.

Results

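The proteasome genes of Drosophila were examined in chromatin accessibility data of S2 cells, a cultured line that was derived from embryos and has hemocyte features. Members were the protein-coding genes of the RefSeq table (dm6, Release 6) whose symbol begins with Prosalpha, Prosbeta, Rpn or Rpt and a digit, which gave 48 of the 13962 protein-coding genes of the table. They comprised 14 core particle genes, 18 regulatory particle genes and 16 paralog genes, the last being copies whose symbol ends in T, T1, T2, R, R1 or R2. All 48 lie on 2L, 2R, 3L, 3R or X, and they were set beside the 13922 protein-coding genes of these arms and chromosome 4. The rule used symbols only, and no measured value chose a member.

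Accessibility was measured by ATAC-seq, in which Tn5 transposase inserts adapters into DNA that nucleosomes leave open. Summits are the positions where the insertions within a peak pile up most. The 10 libraries came from S2 cells exposed for 5 days to dsRNA at 10 µg/mL, 2 libraries for each of 5 targets: LACZ, a bacterial gene that served as the control, GAF, BAP170, NURF301, and NURF301+BAP170 together. BAP170 is a subunit found only in the remodeler PBAP and NURF301 only in the remodeler NURF, and the control cells carried dsRNA too. The deposited list was called on all libraries together, so a value stands for the 5 treatments at once, no treatment or replicate can be compared, and no test over samples was possible. The list holds 39806 summits in 15615 peaks. Each summit has a score, the −log10 of the q-value from the peak caller, with a lowest value of 1.30, a median of 21.9 and a highest of 80130. The score grows with read depth and copy number as well as with accessibility, and 24822 summits share their exact score with another one, so equal scores at different genes need not be the same summit.

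The proteasome degrades proteins tagged with ubiquitin. Its core particle is a barrel of stacked rings, with alpha subunits that form the gate and beta subunits that hold the proteolytic sites, and its regulatory particle consists of a ring of Rpt ATPases, which unfold substrates, and of Rpn subunits, which bind, deubiquitinate and position them. These subunit genes are used in nearly every cell. Drosophila also carries additional copies of many of them, and some of the copies, such as Prosalpha3T and Prosalpha6T, are known to be expressed in the male germline. S2 cells hold no testis tissue, so expression of the copies in testis could not be checked here. The symbols that end in R, R1 or R2 do not name testis.

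Summits no farther than 500 bp from the start or end of the gene stood at 13 of 14 core particle genes (92.9%, 95% Wilson interval 68.5 to 98.7%), at 18 of 18 regulatory particle genes (100%, interval 82.4 to 100%) and at 5 of 16 paralogs (31.3%, interval 14.2 to 55.6%). Among all 13922 protein-coding genes the share was 60.0%. Both subunit groups thus lay above the share of all genes and the copies below it. The intervals cover counting error only, and genes are not replicates. The strongest score per gene had a median of 209.7 over the 13 core genes with a summit, 156 over the 18 regulatory genes and 32.5 over the 5 paralogs, beside 103 over the 8358 protein-coding genes with a summit. Of the core genes 10 were at or above that median of all genes, of the regulatory genes 13, and of the paralogs 1.

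**Figure D1:**
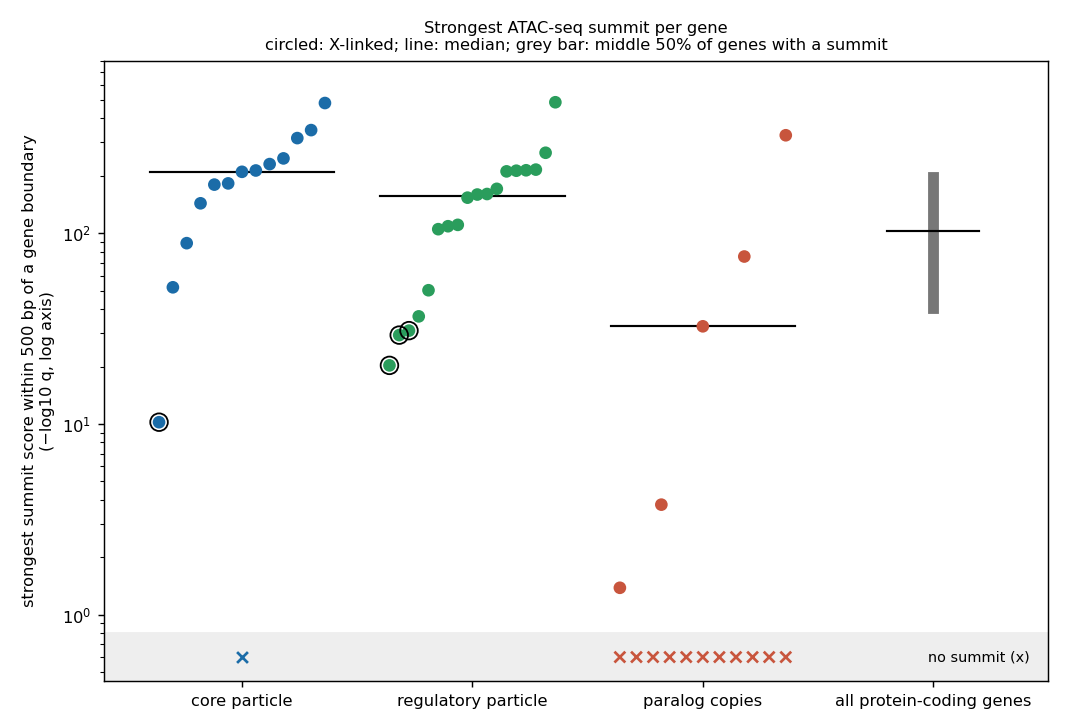
Strongest summit score (−log10 q, log axis) within 500 bp of a gene boundary, with 1 point per gene; lines are medians, crosses in the grey band are genes without a summit, circles mark X-linked genes, and the grey bar spans the middle 50% of all protein-coding genes with a summit. The core (median 209.7) and regulatory (156) genes sit mostly above the median of all genes (103), and 11 of the 16 paralogs are in the band without a summit.

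The alpha ring genes covered the widest range of the core particle. Prosalpha7, on 2R from 9846636 to 9847836, had the highest score of the core genes, 481 at position 9847927, which is 91 bp outside the gene and in the 97.4th percentile of all genes with a summit. It had 6 summits near its boundaries, all in 1 peak of 7 summits, with scores from 3.19 to 481. Prosalpha5 (230.2, 10 bp outside the gene on 2R) and Prosalpha6 (209.7, 20 bp outside the gene on 2L) followed, and Prosalpha2 had 143. These 4 genes were above the median of all genes.

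The other alpha genes were weaker. Prosalpha3 had 52.0, 11 bp before its annotated left end on 2R at 20994900, and a second summit of 3.13 that lies 306 bp inside its right end. Prosalpha4 on X had 1 summit of 10.2, the lowest of all subunit genes, 74 bp inside the gene. Prosalpha1 on 2R, from 7827303 to 7828678, was the 1 subunit gene without a summit near a boundary, and its nearest summit lay 618 bp away with a score of 85.8. The alpha ring thus held both the highest and the lowest core scores.

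The beta ring genes all had a summit, with a narrower range from 88.6 at Prosbeta4 to 347 at Prosbeta2 and a median of 213, against 177 for the 6 alpha genes with a summit. The catalytic subunits are Prosbeta1 (caspase-like activity), Prosbeta2 (trypsin-like) and Prosbeta5 (chymotrypsin-like). Prosbeta1, on 2R from 16013805 to 16014787, had its only summit 71 bp beyond its right end, with a score of 182. Prosbeta2, on 3L from 14999951 to 15001319, had the score of 347 at -423 bp from its left end, inside the neighboring gene mRpL39, and a second summit of 111 only 2 bp from its own left end. Prosbeta5, on 2R from 10819978 to 10821178, had 247 at 14 bp inside the gene. Each catalytic gene thus had a summit of 111 or more within 100 bp of an annotated end, but that of Prosbeta1 is nearer to Rrp42, at 50 bp. The noncatalytic Prosbeta3 also had such a summit (315 at 80 bp), while Prosbeta4, Prosbeta6 and Prosbeta7 did not.

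Among the noncatalytic beta genes, Prosbeta3 had a single summit of 315, 80 bp beyond its right end on 3R, and Prosbeta7 a single summit of 213, 154 bp inside its right end. Prosbeta6 had 5 summits from 18.7 to 179.7, which run from 118 bp before its left end to 15 bp inside its right end, and all belong to 1 peak. The strongest lies inside CG4098, 65 bp from the boundary of that gene. The strongest summit that has Prosbeta6 as its nearest gene scored 82.8. Prosbeta4 had 6 summits, of which the strongest, 88.6, lies inside CG17996. The strongest summit within Prosbeta4 itself scored 59.8, 48 bp from its right end.

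In the regulatory particle, the Rpn genes scored from 36.6 to 486 with a median of 156, and the Rpt genes from 20.3 to 215 with a median of 95.6. Rpn2, a large scaffold subunit, had the highest score of all members, 486 at position 29153418 on 3R, 106 bp before its annotated left end, in the 97.6th percentile of all genes with a summit. Rpn1, the other large scaffold, had a single summit of 111, 30 bp before its left end on 3L. The scaffold genes differed in score, and both had their strongest summit just outside the gene.

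Of the ubiquitin receptor genes, Rpn10 had summits of 154 and 128 at 133 and 23 bp inside its left end on 3L. Rpn13 had a single summit of 105, 15 bp beyond its right end on 2R. They were in the 65.1st and 51.1st percentile of all genes with a summit. Rpn11, which encodes the deubiquitinase of the regulatory particle, had 4 weaker summits, from 22.9 to 50.2, on 2L. Of the remaining lid genes, Rpn6 had 264, Rpn7 214, Rpn5 213, Rpn3 211, Rpn9 159, Rpn12 109 and Rpn8 36.6. The summit of Rpn6 lies 438 bp inside its right end and 49 bp from the boundary of ave, and the strongest summit within 250 bp of a boundary, which is also the strongest that has Rpn6 as its nearest gene, scored 19.4. The summit of Rpn3 lies inside CG10492, and under the same limits Rpn3 had 129. Rpn8, the longest member with 4500 bp, was the lowest autosomal subunit gene within 500 bp, and its strongest summits lie within Slik, which overlaps it.

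The ATPase genes split by chromosome. Rpt5 (215), Rpt2 (171) and Rpt1 (160), on 3R, 3R and 2R, each scored 160 or more, and Rpt1 had its summit exactly at its annotated right end, at position 7653954. The 3 on X were lower, with 30.8 at Rpt3, 29.2 at Rpt6 and 20.3 at Rpt4. Their strongest summits stood 127, 33 and 24 bp from a boundary.

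**Figure D2:**
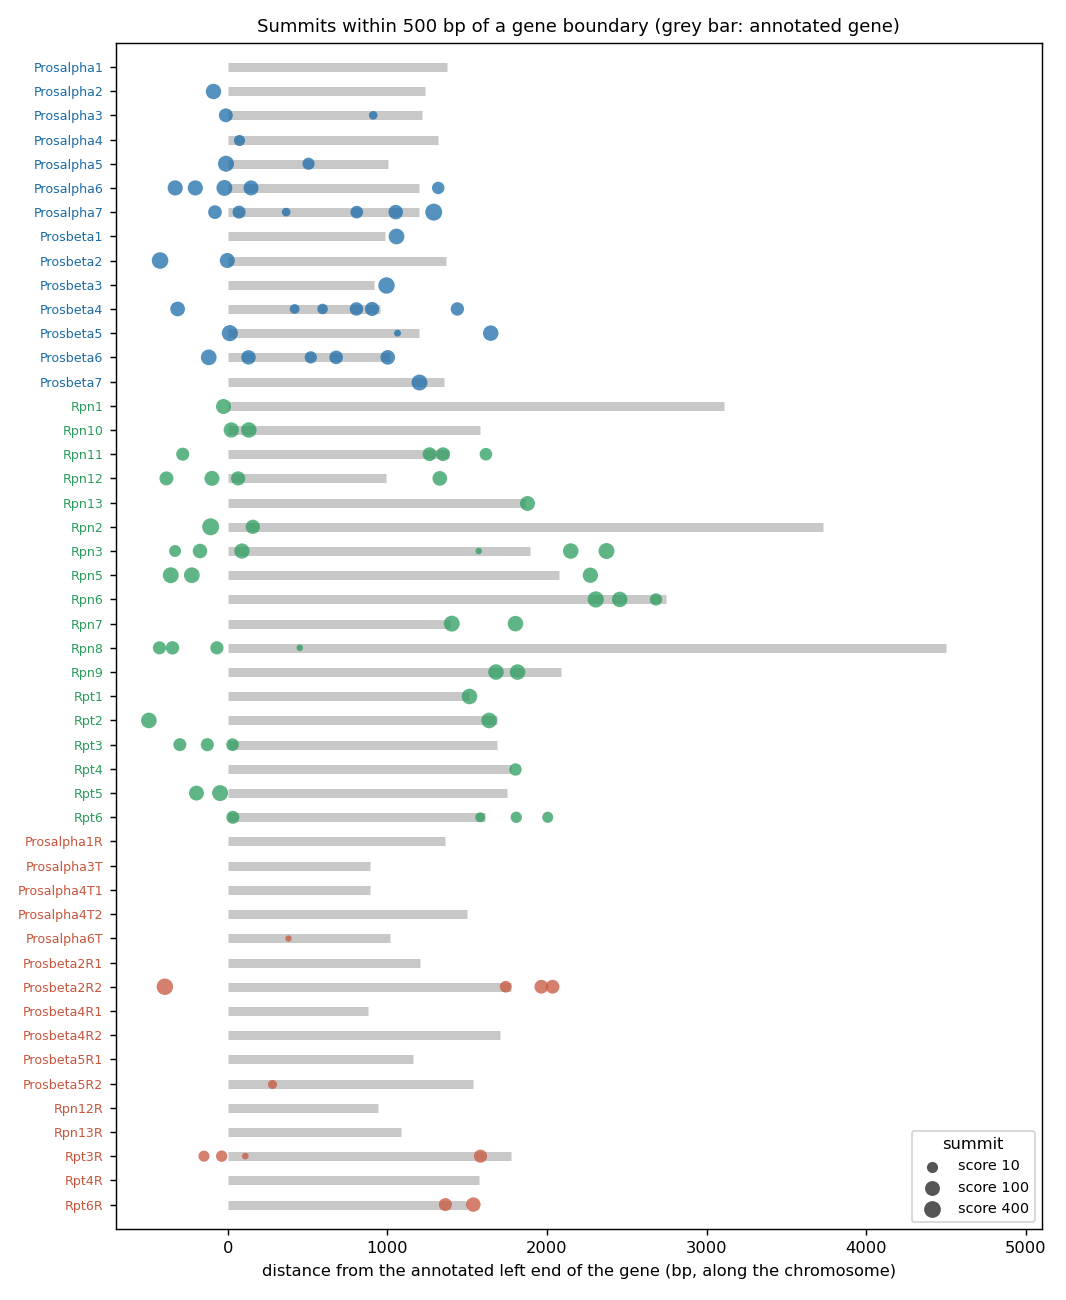
Summits within 500 bp of a boundary for each of the 48 members, as distance from the annotated left end in bp, with the gene as a grey bar and the point size growing with the score; core genes are blue, regulatory green and paralogs red. Most subunit genes have summits at 1 end or both (18 and 13 of 32), while 11 of 16 paralog rows are empty.

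A summit near both boundaries was seen at 13 of the 32 subunit genes and at 2 of the 16 paralogs, against 18.5% of all protein-coding genes. The cytosolic ribosomal protein genes had 52.3%. That list was not split into subunit genes and copies, so its share compares with 15 of all 48 proteasome members (31.25%). Median gene length was 1390 bp for the subunit genes, 1282 bp for the paralogs, 1325.5 bp for the ribosomal protein genes and 2163 bp for all genes. The part of gene length in these counts was not tested. Which boundary holds the promoter was not analysed here, because the gene table carries no strand.

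Distances to the nearest summit use no limit of 500 bp. The median distance was 59.5 bp for the core genes, with a range from 2 to 618 bp, and 42 bp for the regulatory genes, with a range from 0 to 271 bp. For the paralogs the median was 5576 bp and the range ran from 35 to 67637 bp. Over all protein-coding genes it was 179 bp.

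**Figure D3:**
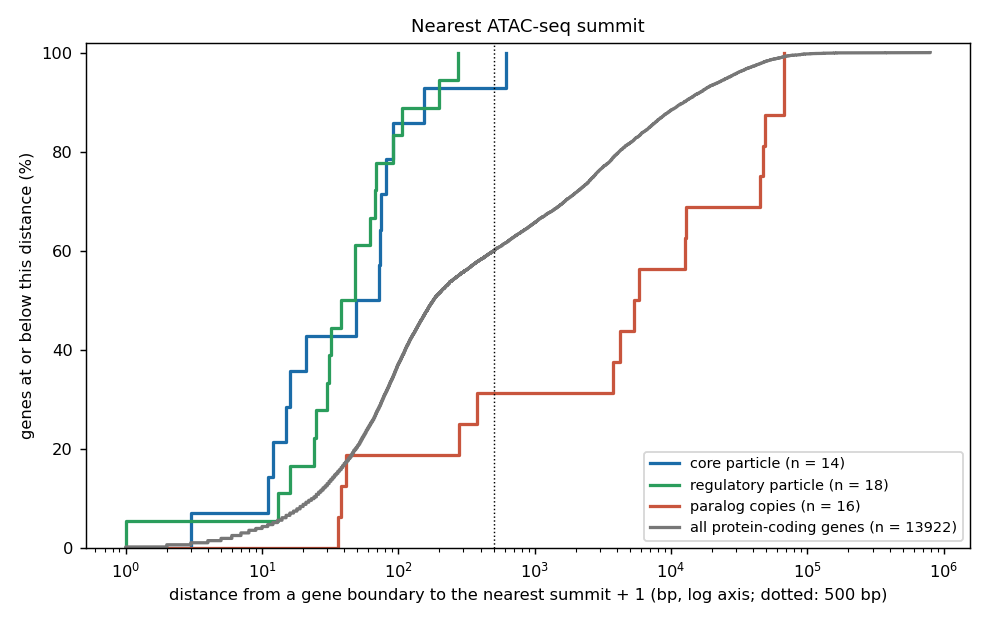
Cumulative share of genes (%) against the distance from a gene boundary to the nearest summit plus 1 (bp, log axis), for core, regulatory, paralog and all protein-coding genes; the dotted line marks 500 bp. The core and regulatory curves are complete by 618 and 271 bp, while the paralog curve stands at 31.3% at the dotted line.

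The paralogs were next compared with the genes whose symbol they carry. Of the 16 pairs, formed with 12 parent genes, 10 had a summit at the parent only, 5 at both and 1 at neither, and there was no pair with a summit at the copy only. In all 16 pairs the copy was farther from its nearest summit than the parent. Some of these differences were small. Rpt3R stood at 37 bp and Rpt3 at 31 bp, Rpt6R at 40 bp and Rpt6 at 29 bp, and Prosbeta2R2 at 35 bp and Prosbeta2 at 2 bp. The summit at 37 bp from Rpt3R is only 12 bp from the boundary of Tti1. The 1 summit that has Rpt3R as its nearest gene is 111 bp from its boundary. Where both had a summit, the parent scored higher in 3 pairs and the copy in 2. With each summit counted only for its nearest gene, the parent scored higher in 4 and the copy in 1. The pairs are not independent, since Prosalpha4, Prosbeta2, Prosbeta4 and Prosbeta5 each appear more than once.

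**Figure D4:**
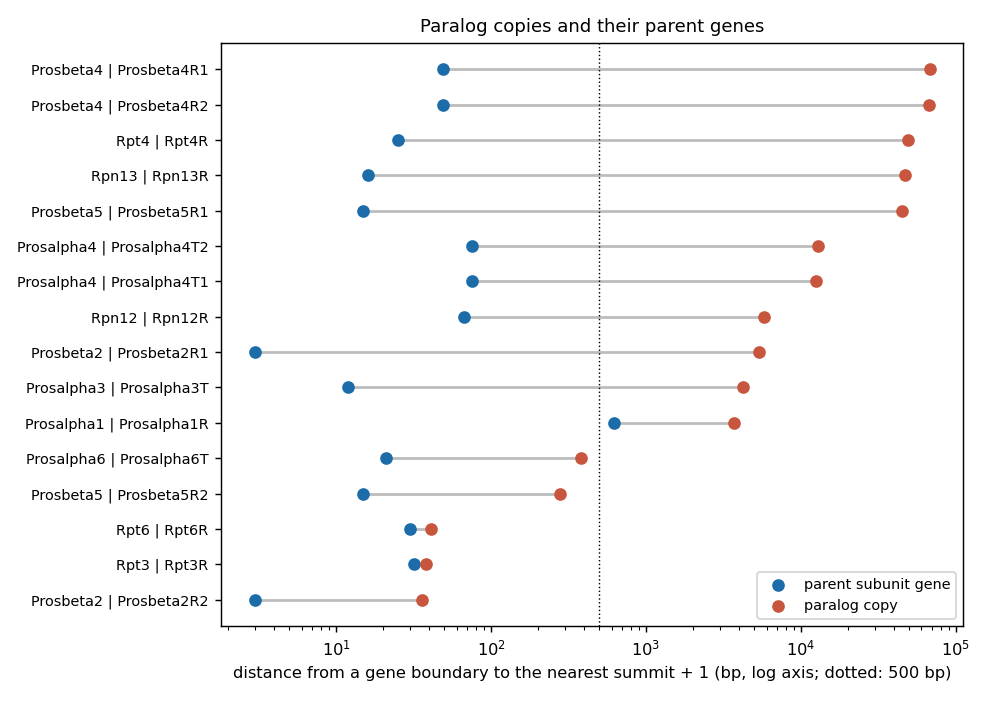
Distance from a gene boundary to the nearest summit plus 1 (bp, log axis) for each paralog copy (red) and its parent gene (blue), joined by a line; the dotted line marks 500 bp. The copy is to the right of its parent in all 16 pairs, and 11 copies are beyond 500 bp. The points of Rpt3R (37 bp) and Rpt6R (40 bp) are close to those of Rpt3 (31 bp) and Rpt6 (29 bp). The summit 37 bp from Rpt3R is nearer to Tti1, at 12 bp.

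Of the 5 copies of alpha genes, Prosalpha6T was the only one with a summit near a boundary. Prosalpha3T on 3R, Prosalpha4T1 on 3R and Prosalpha4T2 on 2R had their nearest summits at 4218, 12606 and 12898 bp, where their parents Prosalpha3 and Prosalpha4 had one at 11 and 74 bp. Prosalpha6T, on 2L from 13232039 to 13233058, had a single summit inside the gene with a score of 1.38, close to the lowest score of the whole list, against 209.7 at Prosalpha6. Prosalpha4T1 lies inside the larger gene CG42322.

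Among the copies of beta genes, Prosbeta4R1 and Prosbeta4R2 lie close together on 2L, and both sit in 1 stretch of 139258 bp without a summit. Prosbeta5R1 on 2R sits in a stretch of 275775 bp without one, the longest of the 12 members that lack a nearby summit. Prosbeta2R1 on X had its nearest summit at 5385 bp. Prosbeta5R2 on 2L had 1 summit within 500 bp of a boundary, of 3.78 and 277 bp inside the gene, and within 1000 bp its strongest score was 15.9. The corresponding parents Prosbeta4, Prosbeta5 and Prosbeta2 had strongest scores of 88.6, 247 and 347.

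Prosbeta2R2 was the only copy above the median of all genes, with a score of 326. This summit, at position 5217358 on 3R, lies 393 bp outside Prosbeta2R2 and inside cno, 98 bp from the end of that gene, which encodes the junction protein Canoe. The summits of 49.6 and 48.1 on the other side lie inside CG1116. The 1 summit for which Prosbeta2R2 is the nearest gene is 35 bp inside its right end and scored 13.9.

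Of the regulatory copies, Rpn12R, Rpn13R and Rpt4R had their nearest summits at 5766, 47088 and 48803 bp. Rpt6R, on 3R from 30582198 to 30583697, had a summit of 75.4 that lies 40 bp beyond its right end and for which no other gene boundary is nearer. Its parent Rpt6, on X, had 29.2. Rpt3R on 3R had 32.5 at 191 bp inside its right end, but that summit is 172 bp from the boundary of Alg12, which overlaps the end of Rpt3R, and Rpt3 on X had 30.8. Both copies that scored above their parents are autosomal copies of X-linked genes. The other autosomal copies of X-linked genes, Prosalpha4T1, Prosalpha4T2 and Rpt4R, had no summit near a boundary. For Rpt3R the direction turned when a summit was counted only for its nearest gene, with 1.54 at Rpt3R and 30.8 at Rpt3.

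Prosalpha1 and its copy Prosalpha1R stand 1734 bp apart on 2R and formed the 1 pair without a summit at either gene. Their surroundings are alike: the left end of Prosalpha1 overlaps phr, a DNA photolyase gene, by 17 bp, and the left end of Prosalpha1R overlaps CG18853 by 17 bp as well, and the next gene begins 383 and 399 bp beyond their right ends. Both lie in 1 stretch of 59406 bp without a summit, from 7826685 to 7886091, which contains 6 protein-coding genes. How reads that match 2 places in the genome were counted is not given in the sources used here, and whether such reads play a part was not tested, so the missing summits at this pair are uncertain.

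For the 11 paralogs without a nearby summit, the distance to the nearest one had a median of 12898 bp, against 4160 bp over all protein-coding genes without one. Of the 12 members without a summit, 7 were more than 10 kb away, as were 29.0% of all genes without one. All 7 are paralogs.

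The subunit genes stand closer to other genes than the copies do. Another protein-coding boundary within 500 bp was present at 31 of the 32 subunit genes, at 8 of the 16 paralogs and at 71.0% of all protein-coding genes, and a summit at such a place can belong to the neighbor. Among all genes with such a neighbor 70.7% had a summit, against 13 of 14 core genes, 17 of 17 regulatory genes and 3 of 8 paralogs. Among all genes without such a neighbor 34.0% had one, against 2 of 8 paralogs and Rpt1, the 1 subunit gene of this kind. Rpt1 lies inside the gene CG17985, so its summit is within both genes and can belong to either. With a neighbor, the share of the copies lay below that of all genes and the subunit shares above it. The Wilson interval of the 3 of 8 copies, 13.7 to 69.4%, nearly reaches the 70.7% of all genes. That of the core genes, 68.5 to 98.7%, includes it. Without a neighbor, the interval of the 2 of 8 copies, 7.1 to 59.1%, includes the 34.0% of all genes. Each set of copies has only 8 genes, too few to decide whether their lower share holds apart from neighbors.

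When a summit was counted only for the gene whose boundary is nearest, 11 core genes (78.6%), 15 regulatory genes (83.3%) and 5 paralogs (31.3%) kept one, against 53.0% of all genes. The subunit genes that dropped out were Prosalpha2, Prosbeta1, Rpn5, Rpn9 and Rpt5. The summit of Prosalpha2 lies nearer to CG5245, that of Prosbeta1 to Rrp42, those of Rpn5 to Hat1 or Hpf1 and those of Rpt5 to RanBP3. The median score of the paralogs fell from 32.5 to 3.78 under this rule, since the summits at Prosbeta2R2 and Rpt3R were then counted for neighbors, while the median of the regulatory genes fell from 156 to 109 and that of the core genes was again 209.7. Over all subunit genes with a summit, the strongest one had the member itself as the nearest gene in 21 of 31. It lay between genes in 13, inside the member in 10 and inside another gene alone in 8.

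Within 500 bp, the 4 X-linked subunit genes had the lowest scores of the 31 subunit genes with a summit, from 10.2 at Prosalpha4 to 30.8 at Rpt3, and the 27 autosomal ones ranged from 36.6 to 486. The groups did not overlap at this distance, and the medians were 24.8 and 182. They did overlap under 3 of the 5 alternatives. At 250 bp, and with each summit counted for its nearest gene, the autosomal Rpn6 had 19.4, below Rpt3, Rpt6 and Rpt4. At 1000 bp the X-linked Prosalpha4 had 40.7, above the 36.6 of Rpn8. The X-linked median was between 24.8 and 30.0 and the autosomal one between 141 and 210.3 over all settings. With summits at or above the median score, only 2 X-linked genes were left, since that limit removed Prosalpha4 and Rpt4. The same direction was seen over all protein-coding genes with a summit, whose median was 35.0 on X and 117 on the large autosomes. On X 51.4% of all genes with a summit scored below 36.6, the lowest autosomal subunit gene, and on the large autosomes 18.2%. The median distance to the nearest summit was 30 bp for the X-linked subunit genes and 47.5 bp for the 28 autosomal ones. S2 cells are a male line with fewer copies of X than of each autosome, and the part of copy number in the score was not tested.

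**Figure D5:**
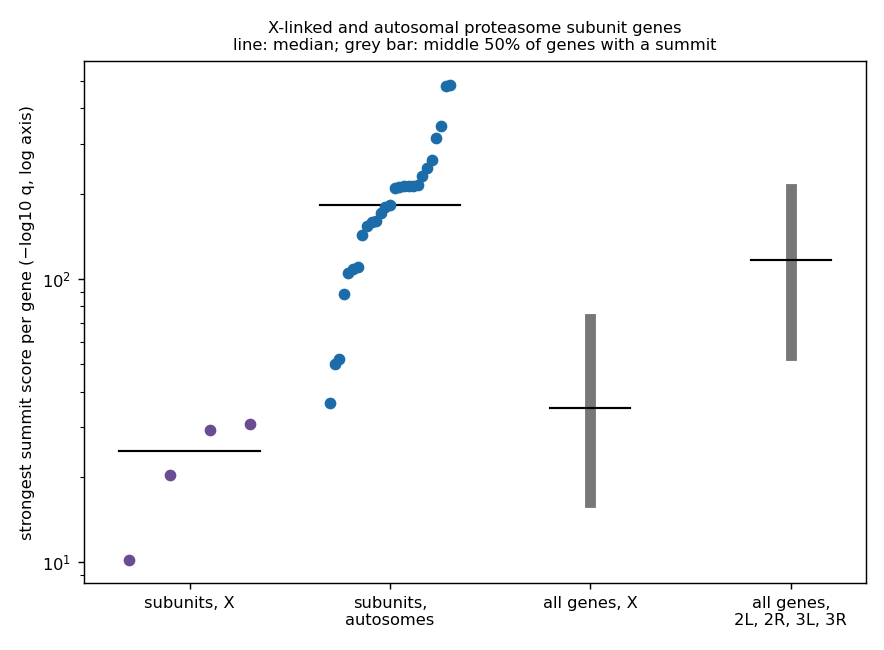
Strongest summit score per gene (−log10 q, log axis) for the 4 X-linked and 27 autosomal subunit genes as points, and for all genes with a summit on X and on 2L, 2R, 3L and 3R as bars over the middle 50%; lines are medians. The X-linked subunit genes (10.2 to 30.8) are all below the autosomal ones (36.6 to 486) within 500 bp, but not at 250 bp (Rpn6 19.4), at 1000 bp (Prosalpha4 40.7) or by nearest gene, and the medians of all genes are 35.0 and 117.

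Of 19 other listed genes of the pathway, for assembly, regulation and ubiquitin supply, 18 had a summit near a boundary (94.7%). Their strongest scores had a median of 147, the lowest being 44.7 at rngo and the highest 404. Among the high ones were cnc (404), which encodes the transcription factor CncC that activates proteasome genes, Rad23 (400.5), a shuttle for ubiquitinated proteins, and ntc (364), an F-box protein needed for proteasome activity in spermatids. Uba1, the ubiquitin-activating enzyme, had 355, Pomp, the core particle maturation factor, 263, Sem1, a small lid subunit, 106, and the ubiquitin gene Ubi-p63E 202. The gene without one was REG, a proteasome activator on X, with its nearest summit at 700 bp.

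For comparison, 83 of 88 cytosolic ribosomal protein genes (94.3%) and 14 of 22 vacuolar ATPase genes (63.6%) had a summit, with medians of 141 and 170. Neither list was split into subunit genes and copies, as the proteasome members were. Their shares thus compare with the 36 of 48 proteasome members that had a summit, and not with the shares of the subunit genes alone. Of 29 genes known for expression in testis, 9 had one (31.0%), beside 31.3% of the proteasome copies, with a median score of 122 beside 32.5. Of these 9, ocn, orb2, topi, achi and bol had a summit within 125 bp of a boundary, twe and vis at 194 and 288 bp, and fzo and mia at 418 and 441 bp. Of the markers, 7 of 8 hemocyte genes had a summit within 500 bp of a boundary, and NimC1 had none. The counts were 3 of 6 neuronal, 4 of 5 germline and 0 of 6 muscle genes. These counts leave out summits farther inside a gene. The muscle gene sls held 69 of them, none closer than 971 bp to a boundary, and was the 1 muscle gene with a summit inside. The hemocyte genes scored from 14.0 at Pxn to 513 at Pvr, and their median of 40.4 was below that of all genes. The germline genes vas (64.4), aub (83.0), zpg (180) and bgcn (13.1) had a summit and bam, which is also on the testis list, did not.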

How the data were processed

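The values are −log10 q-values, which the authors deposited as the scores of 1 BED list of summits for all 10 libraries. Programs named by the submitters, without roles, are MACS2 (2.1.0.20150731), Bowtie2 (version 2.3.5.1), deepTools (version 3.1.3) and DESeq2 (version 1.26.0), with the build dm6. For read filters, Tn5 shifts and library depths nothing is given in the sources used here. Summit positions (the end coordinate, counted from 1) were set against gene boundaries of the RefSeq table (Release 6). Members and lists were chosen with earlier results of these data known. All members are named, with neighbors at their summits, some of which are not reported here. Of 30 testis and 6 germline symbols, 29 and 5 matched, and Ufd1-like matched through a synonym. Counts and medians are descriptions without tests, since 1 pooled list has no replicates. Comparisons of promoter motifs, of proteins and of the 5′ and 3′ boundaries were planned but not run, for want of sequence and strand. The work was done in Python 3.11.15 (pandas 2.3.3 for tables, numpy 2.4.6, scipy 1.17.1 for intervals, matplotlib 3.10.9 for figures), and the assignment of summits to genes was tested on simulated data.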

Additional observations from a re-analysis of the deposited data

How the results depend on the processing

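No paired analysis was possible because summits were called on the joined libraries and carry no replicate number, and no library could be left out for the same reason. Counting only the 5′ boundary was not run for all genes, since the table has no strand. The median without genes on X was chosen after seeing the data. Over all protein-coding genes, the share with a summit was 54.1% at 250 bp, 65.7% at 1000 bp, 54.9% with the strongest summit of each peak, 50.5% with summits at or above the median score and 53.0% with the nearest boundary only. Their median score was 95.8 at 250 bp, 108 at 1000 bp, 128 at or above the median score, 83.7 with the nearest boundary and 118 without X. The core share rose to 100% at 1000 bp, where Prosalpha1 was reached. The other group values stayed within the 95% interval of the reported value (Wilson for shares, order statistics for medians), but the interval of the paralog median runs from 1.38 to 326, so this says little. The paralog share was 18.8% at 250 bp and at or above the median score, and the paralog median was 48.1 and 75.4 there, 54.0 with the strongest summit of each peak and 3.78 with the nearest boundary. At 250 bp Prosalpha6T, Prosbeta5R2 and Rpn9 had no summit, and at or above the median score Prosalpha4, Prosalpha6T, Prosbeta5R2 and Rpt4 had none. With only the strongest summit per peak, Prosbeta5R2 and Rpn6 had none. In each setting the core and regulatory shares were above, and the paralog share below, that of all genes.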
